A study of Mus musculus with 100 samples.

Results

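Insulin signalling genes of adipocytes, 10 in number, were followed through mouse fat and adipocytes that lack, by label, the corepressor subunit GPS2. The members were the genes named Insr, Irs1, Irs2, Grb14, Grb10, Slc2a4, Akt2, Pik3r1, Foxo1 and Tbc1d4, found by mapping the Ensembl transcript rows of the 5 deposited tables to gene symbols, and all 10 were found among 32153 genes with a chosen transcript. They were listed by name with earlier results of these data known, and the rule itself uses no measured value. All 10 passed the filter on low values, a mean of 10 or more, in each of the 5 tables.

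Insulin binds its receptor on the fat cell, and the receptor kinase then phosphorylates the insulin receptor substrates IRS1 and IRS2. These recruit the lipid kinase PI3K, whose product activates the kinase AKT2. AKT2 phosphorylates the Rab GTPase regulator TBC1D4, also known as AS160, which lets vesicles carrying the glucose transporter GLUT4 reach the cell surface, and it keeps the transcription factor FOXO1 out of the nucleus. The adaptor proteins GRB14 and GRB10 bind the active receptor and restrain it. In adipocytes the pathway drives glucose uptake and lipid synthesis and holds back lipolysis.

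The series asks which genes are deregulated by loss of GPS2 from adipocytes, with chow, a high fat diet or a beta-adrenergic agent as the setting. All mice carried, per the strain label, Gps2flox/flox alleles and Adipoq-Cre, a Cre driven by the adiponectin promoter and so active in adipocytes. The strain label is the same for knockout and wild type, and the genotype (KO or WT below) stands only in the sample titles. For CD, intra-abdominal fat came from 3 KO and 3 WT replicates, aged 19 weeks and fed normal chow. For HFD, the same depot came from 4 KO and 4 WT replicates, aged 11 weeks and fed a high fat diet, for 4 weeks by the name of the table. Epi was whole intra-abdominal fat (3 KO and 3 WT replicates) and Adipo was adipocytes of that depot (2 KO and 3 WT replicates), both at 19 weeks of age and named for 12 weeks of high fat diet. BA was the inguinal depot at 8 weeks of age, from the beta-adrenergic series, with 4 KO and 4 WT replicates. No label says that the replicates were separate animals, so p-values measure only how these samples differed, and that spread may be technical. In whole fat, fewer adipocytes and less RNA per adipocyte cannot be told apart.

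Values are the deposited signal, reads per transcript divided by a size factor per library, and each table was normalised on its own, so that KO and WT were compared only within a table. Recovered reads ranged from 29342792 to 63232066 per replicate. All 8 adipocyte markers lay at a signal of 50 or more in every replicate, a low floor for them. Their sum in CD WT 2 was 158944, against 326581 to 617992 in the other CD replicates. The Gps2 transcript with the most reads was not lower in KO than in WT: it ranged from 330 to 424 in HFD KO against 355 to 421 in HFD WT, and from 811 to 839 in Adipo KO against 755 to 851 in Adipo WT. Which part of Gps2 is deleted is not given, so a count over the whole transcript may not check the label, and KO and WT below mean libraries labelled so. Several libraries carried other tissues: CD KO 1, CD KO 2, CD WT 2 and Epi KO 2 had 6 of 7 mammary and epithelial markers at 50 or more. The 6 markers of epididymis and testis summed to 153890, 141644 and 43736 in those CD libraries, and to 63897 and 19759 in Epi KO 2 and KO 3. BA KO 3 and WT 2 had 5 of 6 skeletal muscle markers at 50 or more, and CD WT 1 had a B cell marker sum of 2170, against at most 223 in the other CD replicates. The libraries CD KO 1 and CD KO 2 were unusually alike, with a chi-square of 6.80 per degree of freedom where other pairs of CD replicates had 188 or more. They still differed by more than repeat libraries of 1 replicate, which had at most 1.16.

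Of the 10 genes, 4 passed when the 5 tables were fitted together, with table and genotype as terms. Irs1, Irs2 and Pik3r1 rose and Grb14 fell, at an adjusted p under 0.05 by limma, against 721 of 11823 genes called in that fit (6.1%). The median log2 fold change of the 10 members was 0.22, against 0.01 for all genes tested. Within single tables Irs2 alone passed, in HFD, where 484 of 13946 genes were called (3.47%). No member passed in Adipo, with 90 of 14105 genes called (0.638%), or in BA, with 4 of 12377 called (0.0323%). No gene at all passed in CD (0% of 15467 genes, with 1487 at an unadjusted p under 0.05) or in Epi (0% of 17513, with 1613 at an unadjusted p under 0.05). At an unadjusted p under 0.05, CD had 3 members (9.61% of all genes tested there), HFD 5 (20.8%), Epi 2 (9.21%), Adipo 6 (24.2%) and BA 3 (9.03%). In the joint fit 7 members stood there, against 19.8% of all genes. By edgeR on the recovered reads 2 members passed in HFD (3.81% of all genes) and 0 in CD (0%), Epi (0%), Adipo (0.886%) and BA (0.00808%). By DESeq2 3 members passed in HFD (10.4% of all genes), 3 in Adipo (12.7%), 2 in CD (5.96%), 1 in BA (2.19%) and 0 in Epi (3.03%).

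**Figure D1:**
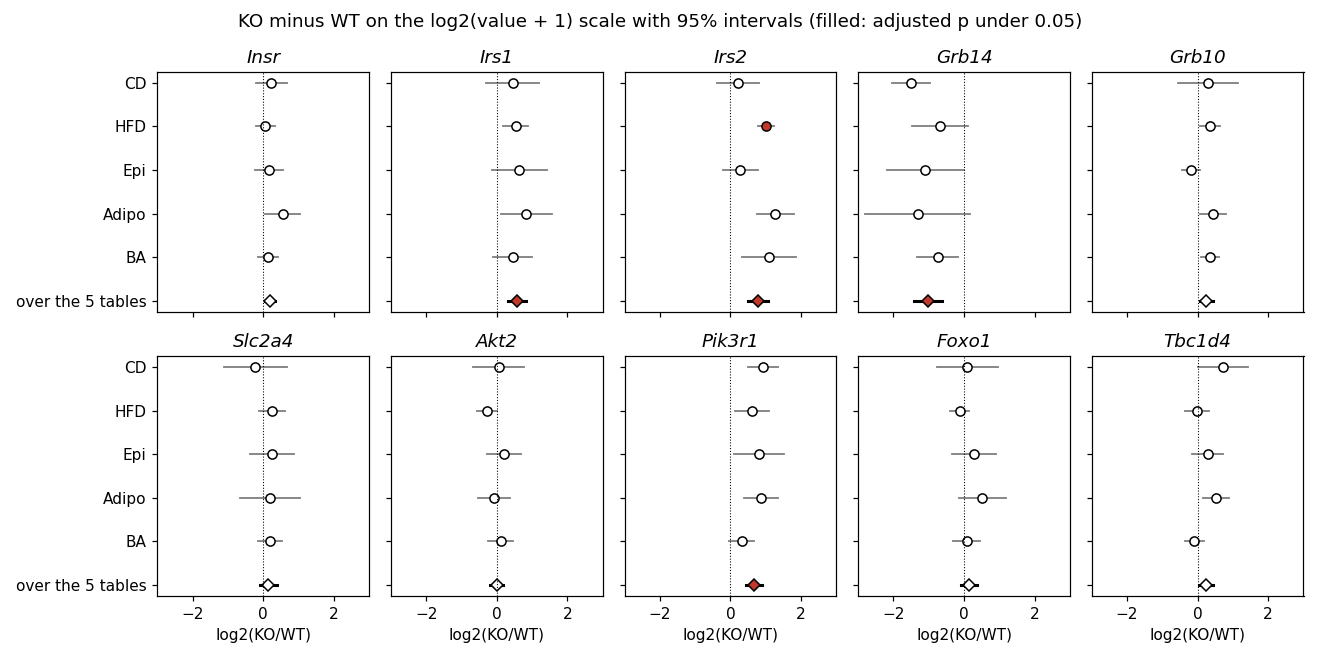
Log2 fold change of KO over WT on the log2(value + 1) scale for each of the 10 genes, 1 row per table and a diamond for the fit over the 5 tables; lines are 95% intervals and filled symbols passed at an adjusted p under 0.05. Grb14 lies below 0 and Irs1, Irs2 and Pik3r1 lie above 0 in every table, while Akt2, Slc2a4 and Foxo1 lie on either side of 0.

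The start regions of the 4 genes that passed over the tables are shown because these genes passed together. Each runs from 250 bases before to 50 after the RefSeq transcript start, on the strand of the gene, in build GRCm38.p6, 5′ to 3′. Capitals mark the letters searched for, read on both strands: CACGTG, the core of the E-box bound by basic helix-loop-helix factors, and TGACG, the short form of the cAMP response element. None of the windows held GTAAACA, a core bound by FOXO proteins, or the full element TGACGTCA.
Irs1, chr1:82291390-82291689, minus strand: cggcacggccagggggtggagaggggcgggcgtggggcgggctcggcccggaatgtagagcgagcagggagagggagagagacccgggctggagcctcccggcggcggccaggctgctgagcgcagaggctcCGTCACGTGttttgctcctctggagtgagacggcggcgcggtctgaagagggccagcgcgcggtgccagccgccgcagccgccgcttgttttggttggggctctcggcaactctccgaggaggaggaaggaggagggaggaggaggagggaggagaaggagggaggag
Irs2, chr8:11008880-11009179, minus strand: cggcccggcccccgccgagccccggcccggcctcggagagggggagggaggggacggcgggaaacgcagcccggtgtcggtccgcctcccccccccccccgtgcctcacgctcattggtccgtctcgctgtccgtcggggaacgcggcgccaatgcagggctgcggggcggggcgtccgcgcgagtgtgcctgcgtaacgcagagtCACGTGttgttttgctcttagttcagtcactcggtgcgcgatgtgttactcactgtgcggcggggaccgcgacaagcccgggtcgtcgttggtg
Pik3r1, chr13:101768168-101768467, minus strand: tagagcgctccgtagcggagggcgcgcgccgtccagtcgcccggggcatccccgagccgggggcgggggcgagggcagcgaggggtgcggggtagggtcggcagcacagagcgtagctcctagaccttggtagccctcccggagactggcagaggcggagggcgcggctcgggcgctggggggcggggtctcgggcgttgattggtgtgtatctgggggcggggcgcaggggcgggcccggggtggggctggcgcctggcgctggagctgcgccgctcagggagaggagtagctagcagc
Grb14, chr2:65022717-65023016, minus strand: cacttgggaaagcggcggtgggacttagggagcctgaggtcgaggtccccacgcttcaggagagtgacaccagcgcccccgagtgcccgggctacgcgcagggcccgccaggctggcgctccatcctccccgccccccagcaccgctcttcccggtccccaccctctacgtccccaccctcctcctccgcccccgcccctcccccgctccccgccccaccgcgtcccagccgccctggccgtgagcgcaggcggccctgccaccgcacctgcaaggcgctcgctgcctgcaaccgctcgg
CACGTG stood in both substrate genes, 44 bases before the Irs2 start and 115 before the Irs1 start, and in 7.15% of 32851 promoters of the same length. In Irs1 it overlapped CGTCA, the reverse of TGACG, a match found in 20.8% of all promoters. GTAAACA stood in 3.65% and TGACGTCA in 1.79% of all promoters. The windows of Pik3r1 and Grb14 held none of these letters, and an internal start region of Pik3r1 (chr13:101692581-101692880) held TGACG 35 bases before its start. The RefSeq table gave 13 start regions for 8 of the 10 genes. Of these 8 genes, 4 held TGACG in at least 1 region (Irs1, Grb10, Akt2 and Pik3r1), 2 held CACGTG and 0 held GTAAACA or TGACGTCA. The Irs2 window lies upstream of the transcript that was counted, which starts at position 11008458 on chromosome 8.

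Levels of the genes were compared per kilobase of the counted transcript and within a table. Slc2a4, which encodes GLUT4, had the highest signal per kilobase of the 10 genes in every group, with 1061 per kb in CD KO and 1221 in CD WT, and with 5463 in BA KO and 4785 in BA WT. Its lowest place among the genes tested was the percentile 93.4, in CD KO. Akt2 was the second and Pik3r1 the third of the 10 in every group. This is an order of means, and spreads of neighbours in it overlapped in several groups. Those of Slc2a4 and Akt2 overlapped in both CD groups, both Epi groups, Adipo WT and HFD WT. In HFD WT they were 1323 ± 305 and 1312 ± 203 per kb (SD, n = 4). Irs1 was last in 7 of the 10 groups. In those groups it had, for example, 107 ± 13.2 per kb in HFD KO and 74.2 ± 16.6 in HFD WT (SD, n = 4 each), and 232 ± 54.6 per kb in Adipo KO (n = 2) and 133 ± 37.6 in Adipo WT (n = 3). Grb14 was last in CD KO, at 62.0 ± 7.58 per kb, where Irs1 had 114 ± 29.8 (SD, n = 3). Irs2 was last in BA KO and in BA WT, at 78.7 ± 32.9 and 34.1 ± 8.38 per kb (SD, n = 4 each).

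**Figure D2:**
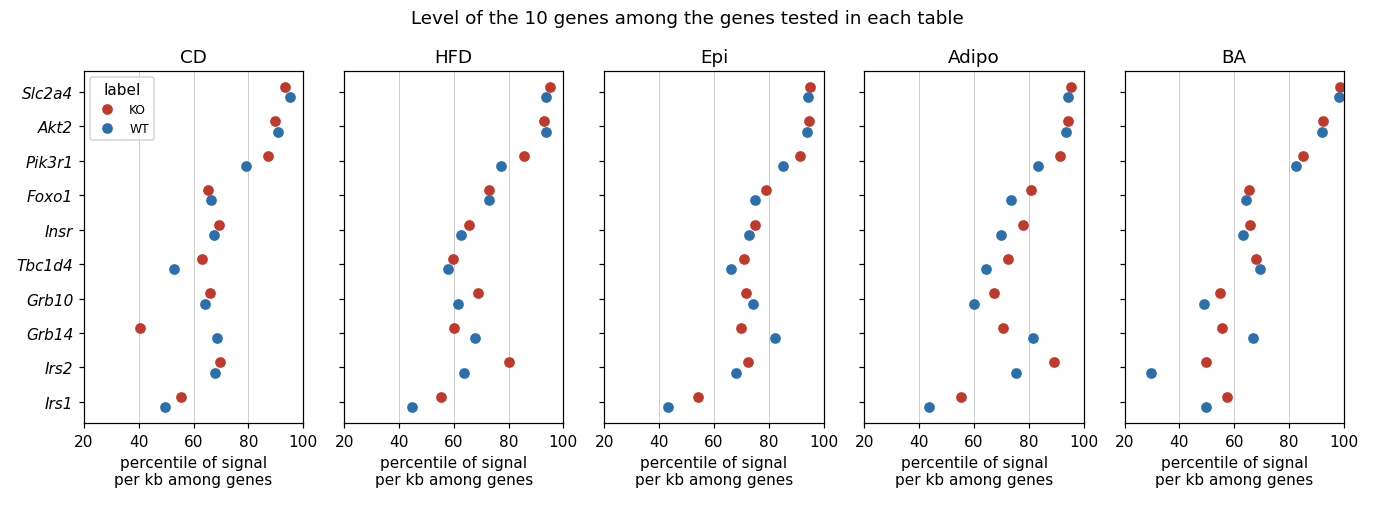
Rank of the 10 genes by signal per kilobase, as the percentile among the genes tested in each table (x axis), for the mean of the KO replicates and of the WT replicates. Slc2a4 and Akt2 sit at the top in all 5 tables, and Grb14 in CD and Irs2 in BA stand far apart between KO and WT.

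Insr encodes the insulin receptor, a tyrosine kinase at the cell surface. Its mean was higher in KO than in WT in all 5 tables, without passing in any. In Adipo it was 5965 and 6310.4 in KO, against 4899, 4531 and 3308 in WT, and the groups did not overlap (log2 fold change 0.55 ± 0.20, here and below with its SE, adjusted p = 0.171). In CD it was 1837, 1816 and 1921 in KO, against 1765, 1232 and 1803 in WT. The CD groups did not overlap either, by a margin of 1816 against 1803, and the difference was small (0.24 ± 0.18, adjusted p = 0.659). In HFD, Epi and BA the groups overlapped, with log2 fold changes of 0.06, 0.17 and 0.14. Over the 5 tables the log2 fold change was 0.20 ± 0.071 (95% interval 0.06 to 0.35, adjusted p = 0.0931), which missed the threshold.

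Irs1 encodes insulin receptor substrate 1, a docking protein for PI3K. Irs1 in CD was 858, 909 and 1354 in KO, against 853, 505 and 961 in WT. In HFD it was 1143, 939, 857 and 962 in KO, against 533, 580.3, 864 and 736 in WT. In both tables the groups overlapped, in HFD only through KO 3, which lay just below WT 3. In Epi it was 3143, 1396 and 2139 in KO, against 1306, 1775 and 1064 in WT. In Adipo it was 2478 and 1772 in KO, against 1449.5, 1373 and 819.6 in WT. The Adipo groups did not overlap, and in Epi the KO replicates spread widely, with KO 2 inside the WT range. Irs1 in BA was 603, 1166, 1155 and 1015 in KO, against 734, 527, 624 and 989 in WT, where KO 1 lay below 3 of the 4 WT replicates and the other KO replicates above all WT. The log2 fold changes were highest in Adipo (0.83) and Epi (0.64), followed by HFD (0.54), CD (0.45) and BA (0.45), with SE from 0.16 to 0.32. This order rests on single replicates: the CD value was 0.17 without WT 2, and the Epi value was 0.35 without KO 1 and 0.94 without KO 2. None passed alone (adjusted p from 0.101 to 0.65), although Irs1 passed in HFD with TMM scaling (adjusted p = 0.0435), by edgeR (adjusted p = 0.0497), by DESeq2 and without WT 3 and WT 4 (adjusted p = 0.0261). Irs1 rose over the 5 tables by a log2 fold change of 0.56 ± 0.13 (adjusted p = 0.00647). Without the HFD table it was 0.57 with an adjusted p of 0.055, and the call was lost. The counted Irs1 transcript shares 30.86% of its length with exons of Gm9747 on the opposite strand, whose reads cannot be told apart here if strand was not used.

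Irs2 encodes the other main substrate, whose transcription in mouse liver is known to fall when insulin is present. In HFD it was 2359, 1972, 1861 and 2121 in KO, against 1014, 982, 1123 and 993 in WT. Every KO replicate lay above every WT replicate, the lowest KO at 1861 and the highest WT at 1123. The mean was 2.02 times that of WT, the log2 fold change 1.01 ± 0.10 and the adjusted p 0.00229. It remained past the threshold under all 19 alternatives run for this table, at log2 fold changes from 0.94 to 1.10.

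In Adipo Irs2 was 9776 and 8559 in KO, against 3586, 4841 and 3136 in WT. Both KO replicates lay above all WT, at 2.38 times the WT mean, and the log2 fold change of 1.27 ± 0.21 had an adjusted p of 0.0666. Without Adipo WT 3 it passed, at a log2 fold change of 1.13 (adjusted p = 0.0357). Irs2 in BA was 205, 686, 590.0 and 509.6 in KO, against 170.2, 238, 175 and 281 in WT. KO 2, KO 3 and KO 4 lay above all WT and KO 1 lay within the WT range, with a log2 fold change of 1.10 ± 0.34 (adjusted p = 0.322). Without BA KO 1 it was 1.48 and passed (adjusted p = 0.0418).

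In CD Irs2 was 1164, 1075 and 1578 in KO, against 1281, 813 and 1201 in WT, and the groups overlapped. In Epi it was 4173, 3767 and 2829 in KO, against 2579, 3704 and 2591 in WT, and the groups overlapped there too. The log2 fold changes were 0.22 ± 0.24 in CD and 0.28 ± 0.21 in Epi (adjusted p = 0.756 and 0.697). Irs2 rose over the 5 tables by 0.79 ± 0.14 (adjusted p = 0.000706).

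In the Adipo table, markers of endothelial cells moved with genotype. All 5 endothelial markers were at 50 or more in every Adipo replicate, and their summed signal was 12192 to 28891 in KO against 1723 to 3186 in WT. The 5 mesothelial markers summed to 917 to 1410 in Adipo KO against 116 to 566 in Adipo WT. Sums of the 7 macrophage markers overlapped, at 4712 to 9276 in Adipo KO against 2741 to 16540 in Adipo WT. The 5 markers of progenitor and stromal cells summed to 2185 to 4960 in Adipo KO against 717 to 1522 in Adipo WT. The 8 adipocyte markers summed to 1121270 to 1308910 in Adipo KO against 832496 to 1067320 in Adipo WT. Of these, Cfd was higher in Adipo KO without overlap, at 255844 to 530127 against 32917 to 140979 in WT. Lep was lower without overlap, at 40289 to 46264 in KO against 103321 to 236350 in WT. Adipoq, Plin1, Cidec, Lipe, Pparg and Retn overlapped. The part of all these markers in the Adipo differences was not tested. In HFD the 7 macrophage markers summed to 11092 to 13301 in KO against 6162 to 13006 in WT. Only WT 1 lay within the KO range. Within that list Adgre1 was higher in HFD KO, at 543 to 565 against 198 to 541 in WT. Mertk was lower, at 328 to 452 in KO against 499 to 694 in WT. Cd68, Csf1r, Mrc1, Itgam and Lyz2 overlapped. Of the 8 adipocyte markers, Cfd was higher in HFD KO without overlap, at 242210 to 258979 against 77708 to 159337 in WT. Pparg was higher too, at 3510 to 3921 against 1939 to 2781. Lipe was lower without overlap, at 36485 to 42206 in KO against 43529 to 51834 in WT. Adipoq, Plin1, Cidec, Lep and Retn overlapped. The part of all these markers in the HFD differences was not tested. The endothelial markers there summed to 9252 to 12688 in KO against 10270 to 14121 in WT. KO 1 had the most B cell and WT 1 the most epithelial signal in HFD. Without these 2 libraries the Irs2 log2 fold change was 0.94 and passed. The macrophage sums then no longer overlapped, at 11092 to 11417 in KO against 6162 to 10556 in WT, and their part was not tested by that fit.

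**Figure D3:**
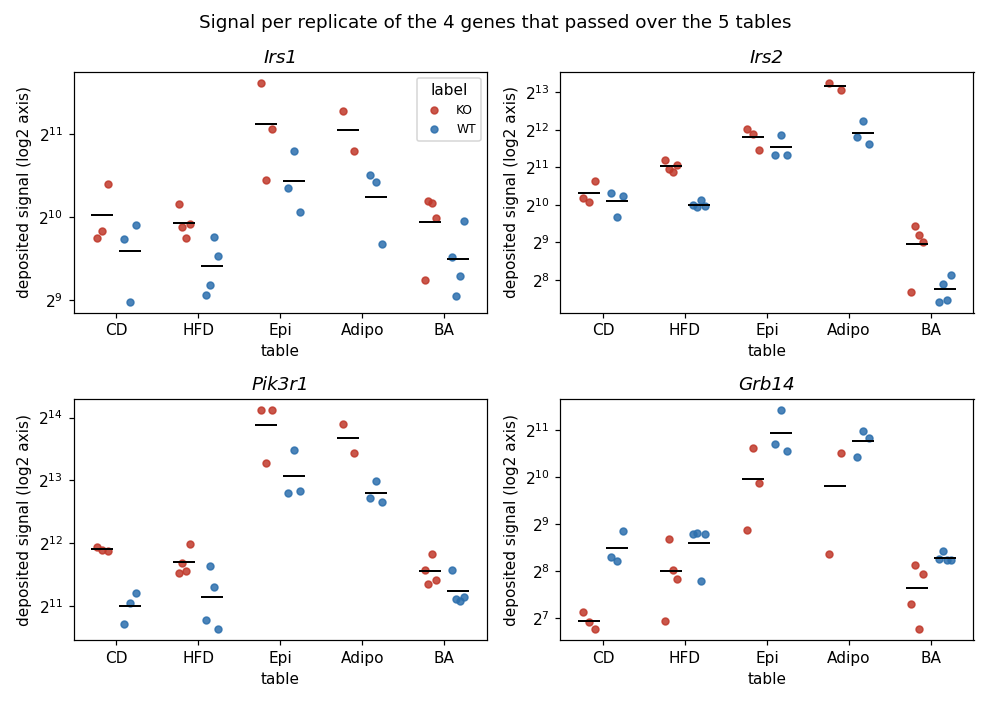
Deposited signal of Irs1, Irs2, Pik3r1 and Grb14 in every replicate (points, log2 axis) with the group mean (bar), KO left of WT, in each of the 5 tables; tables are scaled separately. KO and WT do not overlap for Irs2 in HFD, Pik3r1 in CD, Grb14 in CD and BA, and Irs1, Irs2 and Pik3r1 in Adipo. The share of all genes without overlap is not given.

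Grb14 encodes an adaptor that binds the active insulin receptor and inhibits its kinase. It was the only 1 of the 10 members with a lower log2 mean in KO in all 5 tables. In CD it was 139, 121 and 109 in KO, against 315, 296 and 459.7 in WT. All KO replicates lay below all WT, at 0.345 times the WT mean, with a log2 fold change of -1.51 ± 0.22 (p = 0.000467, adjusted p = 0.504 among 15467 genes). DESeq2 on the recovered reads called it (adjusted p = 7.9e-10). The sum of the 5 mast cell markers was also lower in CD KO without overlap, at 390 to 617 against 835 to 1009.6 in WT. Cpa3, Tpsb2, Mcpt4 and Cma1 were each lower in CD KO without overlap. Kit of that list went the other way, at 291 to 464 in KO against 264 to 275 in WT. The part of these markers in the CD differences of Grb14 and Pik3r1 was not tested. In BA Grb14 was 157, 281, 109 and 244 in KO, against 304, 344, 300.3 and 301 in WT. The BA groups did not overlap, and the log2 fold change was -0.75 ± 0.26 (adjusted p = 0.389), or -0.50 without KO 3.

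In the other 3 tables the KO replicates were uneven. In HFD Grb14 was 122, 408, 259.8 and 229 in KO, against 439, 449, 219 and 444 in WT, with WT 3 as low as the KO replicates and KO 2 near the WT level. In Epi it was 469, 1584 and 944 in KO, against 1666, 2755 and 1505 in WT, and in Adipo 327 and 1456 in KO, against 1382, 2025 and 1820.4 in WT. KO 1 was lowest in both of these tables. Whether KO 1 of the 2 tables is 1 animal is not stated, and the correlations of same-numbered KO samples were low (0.268 and 0.105). Without Adipo KO 1 the Adipo log2 fold change was -0.24, against -1.32 ± 0.60 with it. Without HFD KO 1 it was -0.36, against -0.67 ± 0.36, and without Epi KO 1 it was -0.64, against -1.10 ± 0.45. Grb14 fell over the 5 tables, with a log2 fold change of -1.02 ± 0.19 (adjusted p = 0.00154), and it remained past the threshold in all 16 alternatives, from -1.13 to -0.79. All 7 or 8 Grb14 transcripts listed in a table were lower in KO, in each table.

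Grb10 encodes the sister adaptor of GRB14, a substrate of mTORC1 that also dampens the receptor. Its level went the other way: it was higher in KO in 4 tables and lower in Epi. Grb10 in BA was 522, 459.6, 486 and 509 in KO, against 452, 389, 353 and 363 in WT. The BA groups did not overlap, with a log2 fold change of 0.35 ± 0.11 (adjusted p = 0.332). In Adipo it was 2127 and 1796 in KO, against 1557, 1268 and 1521 in WT, also without overlap (0.44 ± 0.15, adjusted p = 0.163). In Epi it was 3085, 2685 and 2676 in KO, against 3162, 3100.1 and 3300.1 in WT, and all 3 KO replicates lay below all WT (-0.18 ± 0.11, adjusted p = 0.646). Over the 5 tables the log2 fold change was 0.25 ± 0.088, with an adjusted p of 0.0896. It passed in 5 of 16 alternatives, among them the sum over all transcripts (adjusted p = 0.039) and leaving out the libraries with epithelial or epididymal markers (adjusted p = 0.00646).

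Pik3r1 encodes the regulatory subunits of class I PI3K, p85α and its short forms, which bind the substrates and both stabilise and restrain the catalytic subunit. In CD it was 3916, 3795 and 3751 in KO, against 1664, 2111 and 2365 in WT. All KO replicates lay above all WT, the KO values within 3751 to 3916, and the KO mean was 1.87 times the WT mean. The log2 fold change was 0.92 ± 0.17 (p = 0.00181, adjusted p = 0.504), and it was called by DESeq2 (adjusted p = 0.000124). KO 1 and KO 2 of CD are the pair of near-alike libraries, and their average as 1 replicate gave no call either.

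In Adipo Pik3r1 was 15233 and 11051 in KO, against 6768, 8125 and 6467 in WT, without overlap (0.87 ± 0.20, adjusted p = 0.0969). In Epi it was 17781, 9896 and 17802 in KO, against 7143, 11465 and 7247 in WT, where KO 2 lay within the WT range (0.80 ± 0.30). In HFD it was 2942, 3266, 3005 and 4055 in KO, against 1744, 3159, 2520.4 and 1584 in WT. In BA it was 3041, 2604, 3612 and 2724 in KO, against 3035, 2196, 2155 and 2255 in WT. WT 2 in HFD and WT 1 in BA were as high as KO replicates, and the log2 fold changes were 0.60 ± 0.22 in HFD and 0.32 ± 0.16 in BA. Pik3r1 rose over the 5 tables by 0.67 ± 0.11 (adjusted p = 0.000307), the smallest p of the 10 members, and it remained past the threshold in all 16 alternatives. All 7 Pik3r1 transcripts were higher in KO in every table, with log2 fold changes from 0.31 to 0.92 in CD and from 0.60 to 1.26 in HFD. Transcripts of 1 gene share exons and may repeat the same reads, so they are not independent of each other, for Grb14 as well.

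Akt2 encodes the AKT isoform needed for insulin-stimulated glucose uptake in fat. Its log2 fold change over the 5 tables was -0.0054 ± 0.09 (SE), with a 95% interval from -0.19 to 0.18 and an adjusted p of 0.983. In HFD it was 4889.6, 5086, 4891 and 4527 in KO, against 4737, 5993, 6139.9 and 6974 in WT, where WT 1 lay among the KO replicates (-0.29 ± 0.13, adjusted p = 0.238). Without HFD WT 1 it passed, at -0.39 (adjusted p = 0.046). In the other tables the groups overlapped, and the sign in CD, Adipo and BA depended on the setting.

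Tbc1d4 encodes the AKT substrate that gates GLUT4 vesicles. Tbc1d4 in CD was 983, 920.2 and 1086 in KO, against 626, 402 and 869 in WT, without overlap (0.72 ± 0.29, adjusted p = 0.517). In Adipo it was 3169 and 3291 in KO, against 2307, 2535 and 1977 in WT, also without overlap (0.51 ± 0.15, adjusted p = 0.126). In HFD and BA the log2 fold changes were -0.02 ± 0.15 and -0.10 ± 0.12 (SE). Tbc1d4 over the 5 tables had a log2 fold change of 0.23 ± 0.10 (adjusted p = 0.172). Reads on a short 5′ transcript of Tbc1d4 as a share of those on the full transcript were lower in CD, 10.1% ± 3.23 in KO and 13.0% ± 6.43 in WT (SD, n = 3 each), than in Adipo, 40.6% ± 0.994 in KO (n = 2) and 33.1% ± 4.65 in WT (n = 3), so coverage along the transcript differed between tables. It also differed with genotype within tables. In Adipo the Tbc1d4 share was 39.9% to 41.3% in KO against 28.7% to 37.9% in WT, and the like share for Pik3r1 was 13.9% to 14.6% in KO against 8.47% to 12.4% in WT, while for Grb14 it was lower, 32.8% to 34.0% in KO against 36.3% to 38.5% in WT. In CD the Akt2 share was 14.4% to 17.8% in KO against 18.1% to 26.0% in WT. None of these groups overlapped. In HFD WT 3 and WT 4 had lower shares than every KO replicate for all 6 genes measured so, with 20.8% and 13.5% for Tbc1d4 against 27.6% to 32.5% in KO. The part of coverage in the differences between KO and WT was not tested. Without those 2 HFD libraries the members called in HFD were 2, Irs1 and Irs2. Neither is among the 6 genes whose shares were measured.

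Slc2a4 encodes GLUT4, the transporter that insulin brings to the surface. It passed in no table, and the log2 fold changes were -0.22 ± 0.36 in CD, 0.20 ± 0.35 in Adipo, 0.20 ± 0.15 in BA, 0.24 ± 0.16 in HFD and 0.25 ± 0.26 in Epi (SE). In CD it was 2044, 2064 and 3924 in KO, against 2568, 2323 and 4356 in WT, with KO 3 and WT 3 well above the rest. In BA it was 14736, 13418, 13389.9 and 13612 in KO, against 12849, 11182, 13879 and 10399 in WT, and the groups overlapped through WT 3. Slc2a4 is also a muscle gene, and the 6 skeletal muscle markers summed to 2373 in BA KO 3 and 2362 in BA WT 2, against 28.6 to 137 in the other BA replicates. In CD WT 2 they summed to 5566, with 2 of the 6 at 50 or more, against 88.8 to 544 in the other CD replicates. With 1 BA replicate left out the log2 fold change ran from 0.13 to 0.27. The joint log2 fold change was 0.14 ± 0.12 (95% interval -0.09 to 0.38, adjusted p = 0.527).

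Foxo1 encodes the forkhead factor that insulin holds out of the nucleus. Its groups overlapped in every table, and the log2 fold changes ran from -0.13 ± 0.12 in HFD to 0.52 ± 0.27 in Adipo. Over the 5 tables it was 0.13 ± 0.11 (95% interval -0.10 to 0.36, adjusted p = 0.55). For Akt2, Slc2a4 and Foxo1 these intervals leave room for changes of the size of their bounds.

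In CD the scale itself moved the values: over all genes the log2 fold change had a median of 0.11 with the deposited size factors and -0.0046 with TMM. With TMM scaling the CD log2 fold changes of Pik3r1, Irs1, Irs2 and Grb14 were 0.80, 0.34, 0.10 and -1.62. Akt2 and Foxo1 in CD turned sign under it. In the other tables the median of all genes lay between -0.09 and 0.01.

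Ratios of 2 genes within a replicate do not depend on the scaling of the library. The log2 ratio of Grb14 to Grb10 was lower in KO in every table. The BA values were -1.73, -0.71, -2.15 and -1.06 in KO, against -0.57, -0.18, -0.23 and -0.27 in WT, without overlap, and the difference of -1.10 had p = 0.0286 in a two-sided exact permutation test, the smallest value that 4 against 4 allows. The CD values were -2.60, -2.71 and -3.14 in KO, against -1.66, -0.48 and -0.94 in WT, without overlap (difference -1.79, exact permutation p = 0.1, the smallest that 3 against 3 allows). The log2 ratio of Irs2 to Irs1 in HFD was 1.04, 1.07, 1.12 and 1.14 in KO, against 0.93, 0.76, 0.38 and 0.43 in WT. The KO values lay close together and above all WT, with a difference of 0.47 and an exact permutation p of 0.0286. That ratio was higher in KO in Adipo without overlap (difference 0.44, exact permutation p = 0.2) and in BA with overlap (0.65, exact permutation p = 0.0571). In CD and Epi it was lower in KO, with differences of -0.23 and -0.36 and with overlap. Tbc1d4 to Tbc1d1, its paralogue, was lower in BA KO without overlap (difference -0.42, exact permutation p = 0.0286). Over 5 ratios in 5 tables these 3 were at an exact p under 0.05, and 0 passed after adjustment, with the lowest adjusted p at 0.238. No ratio could have passed. The smallest exact permutation p possible was 0.0286 in HFD and BA and 0.1 in CD, Epi and Adipo, too high for this adjustment.

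**Figure D4:**
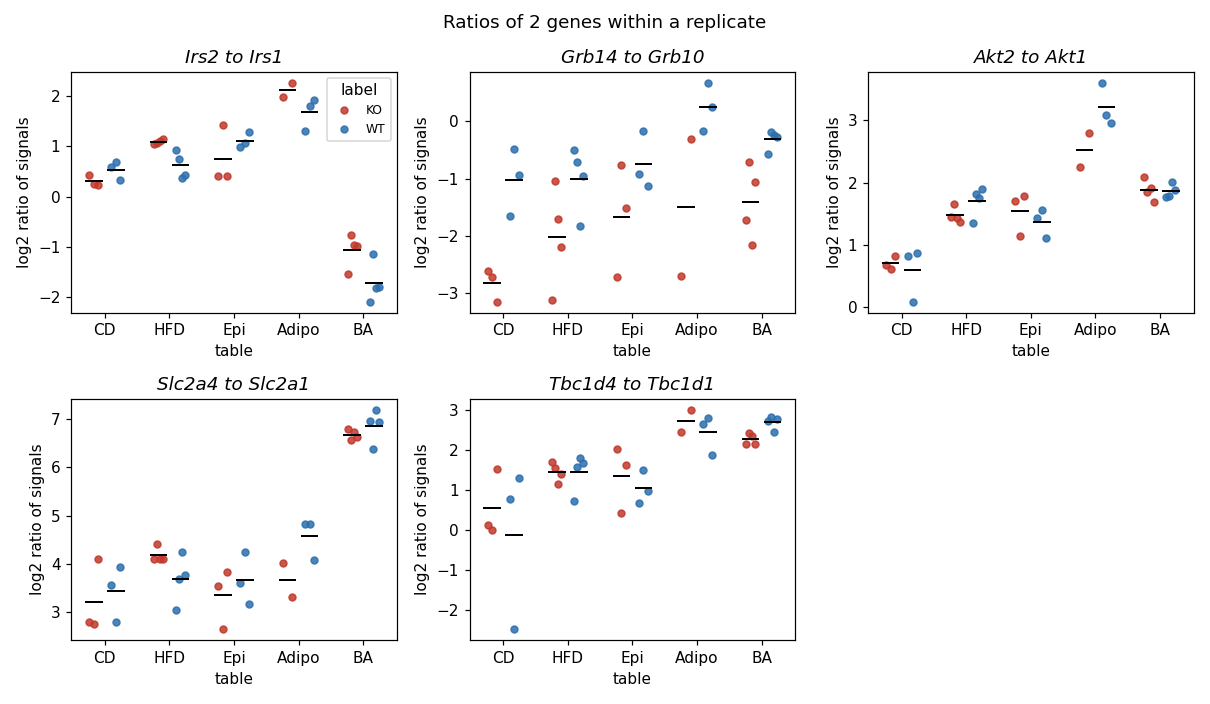
Log2 ratio of the signals of 2 genes within each replicate (points) with the group mean (bar), KO left of WT, in the 5 tables; the genes of a pair differ in length, so only differences between KO and WT are to be read. The ratio of Grb14 to Grb10 is lower in KO in every table, and that of Irs2 to Irs1 separates KO from WT in HFD.

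The difference of the KO effect among the 5 tables was tested as the interaction of table and genotype. Of all genes 1245 of 11823 passed (10.5%), and of the 10 members 0. At an unadjusted p under 0.05 stood 2 members, against 29% of all genes: Tbc1d4 (interaction p = 0.0227, adjusted p = 0.111) and Irs2 (p = 0.0464, adjusted p = 0.165). Between the adipocyte table and the whole fat table of the same age, Adipo minus Epi, 234 of 14033 genes passed (1.67%) and 0 members, with 2 members at an unadjusted p under 0.05 against 13.6% of all genes. The Irs2 effect was larger in Adipo by 0.99 ± 0.32 (SE, adjusted p = 0.195), and that of Grb10 by 0.62 ± 0.18 (SE, adjusted p = 0.134). Between high fat diet and chow, HFD minus CD, 0% of 13749 genes passed, with 2384 at an unadjusted p under 0.05 (17.3%), and 0 members passed, with 2 at an unadjusted p under 0.05. The Irs2 effect was larger in HFD by 0.79 ± 0.24 (SE, p = 0.0056, adjusted p = 0.184). Without CD KO 3 that difference was 0.96 and passed (adjusted p = 0.0294). HFD and CD differ also in age and normalisation, which cannot be told apart from diet.

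Other genes of the pathway were counted in lists chosen with earlier results of these data known. In the joint fit 5 of the 99 genes tested from these lists passed, against 6.1% of all genes. At an unadjusted p under 0.05 stood 23 of the 99, against 19.8% of all genes. Over the 5 tables, among 16 regulators of AKT and mTOR, 2 fell and 0 rose, against 2.5% of all genes that rose and 3.59% that fell. They were Mlst8, a subunit of both mTOR complexes (-0.28 ± 0.05, SE, adjusted p = 0.000949), and Deptor, an mTOR inhibitor (-0.83 ± 0.16, adjusted p = 0.00211). Of 19 genes of GLUT4 vesicle traffic 1 rose and 0 fell: Sort1, which encodes the vesicle protein sortilin (0.32 ± 0.08, adjusted p = 0.00965). Of 11 downstream effectors 1 rose, Srebf1, the transcription factor of lipid synthesis (0.46 ± 0.10, adjusted p = 0.00376), and the list's median was 0.16 against 0.01 over all genes. Of 10 FOXO target genes 1 fell, Sesn3 (-0.34 ± 0.09, adjusted p = 0.0134), and 0 rose, while 6 had values above 0 and the list's median was 0.23. Of 5 receptors and ligands, 13 adaptors, 13 negative regulators of the receptor and 12 genes of PI3K and its phosphatases 0 passed. At an unadjusted p under 0.05 these lists had 1, 3, 0 and 1, against 19.8% of all genes. The other lists had 5 of 10 FOXO target genes there, 5 of 16 regulators of AKT and mTOR, 5 of 19 genes of GLUT4 traffic and 3 of 11 downstream effectors. The IGF1 receptor gene Igf1r was at 0.38 ± 0.17 (adjusted p = 0.212) and the adaptor gene Shc1 at 0.15 ± 0.06 (adjusted p = 0.109).

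Within tables, HFD held 5 passing genes among 102 of these lists tested, near the 3.47% of all genes. Deptor fell by 1.18 on the log2 scale (adjusted p = 0.0031), and Pdk4, a FOXO target that restrains glucose oxidation, fell by 0.73 (adjusted p = 0.00661). The adaptor genes Dok1 and Grb2 fell by 0.58 and 0.36 (adjusted p = 0.0322 and 0.0453), and Igf1 rose by 0.45 (adjusted p = 0.0357). In Adipo 1 gene of the lists passed: Socs3, an inhibitor of receptor signalling that cytokines induce, rose by 4.90 on the log2 scale (adjusted p = 0.0401), in the table where the endothelial and stromal markers were also higher in KO. In CD, Epi and BA 0 genes of the lists passed. At an unadjusted p under 0.05 stood 6 of 103 in CD (9.61% of all genes), 11 of 103 in Epi (9.21%) and 11 of 99 in BA (9.03%), with the smallest adjusted p at 0.504 for Acly and Srebf1 in CD, 0.288 for Sesn3 in Epi and 0.208 for Gab1 in BA.

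The genes most like each member were sought over all 33 replicates, as Pearson's r of log2 values less the mean of their table, among 9808 genes; replicates of a table share their normalisation and genotype differences add to r. The closest to Irs2 were Etv3 (0.85), Pcf11 (0.84) and Huwe1 (0.82), and to Irs1 Ppp1r9b (0.87), Baz1b (0.86) and Ap4m1 (0.84). For Grb14 they were Krt79 (0.82), Fam149a (0.80) and Mxra8 (0.76), and for Pik3r1 Aacs (0.83), Nol6 (0.79) and Arhgap24 (0.79). For Insr they were Jade1, Vps13d and Sik2 (0.86 to 0.80), and for Grb10 Inhbb, Tshr and Rnf144a (0.86 to 0.79). For Slc2a4 they were Gys1, the muscle-type glycogen synthase gene, Trap1 and Epb41l1 (0.82 to 0.77), and for Akt2 Crat, Mtg1 and Emc9 (0.87 to 0.85). For Foxo1 they were Plcg1, Lipe, which encodes hormone-sensitive lipase, and Fgfr1 (0.86 to 0.84). For Tbc1d4 they were Acaca and Srebf1, both of lipid synthesis, and Pex11a (0.84 to 0.77). Among the members themselves the highest r was 0.77, between Irs1 and Irs2, and the lowest was -0.69, between Grb14 and Pik3r1.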

How the data were processed

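Messenger RNA of mouse fat and adipocytes was sequenced from stranded TruSeq libraries, per the labels' protocols. The authors deposited a signal per Ensembl transcript in 5 tables, whose values step like read counts divided by 1 size factor per library; this was read from the values, and each table was treated as scaled on its own. Tools named by the submitters' processing notes are HTSeq 0.5.3, DESeq 1.8.3, STAR 2.4.0k, bcl2fastq 2.17 and SAMtools, and they give the build GRCm38.p4 without saying what each did. Strand use in counting is not stated in the labels or notes. Of 100 samples 99 were used; 1 adipocyte column with a wild-type name fitted no sample's title, and the third adipocyte sample labelled knockout was not analysed here. In all 99 libraries 100% of values lay within 0.01 of a whole step of the signal. In 96 of them the steps were taken as reads. The other 3 were left out of the recovered reads because their step lay close to 1 (0.991, 1.004 and 0.990).

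The transcript with the highest mean among those of the gene's own type stood for each gene (GENCODE M21, GRCm38). Repeat libraries of a replicate, 4 in CD, HFD and BA, were averaged. On log2(value + 1), genes with a mean of at least 10 were tested, KO over WT, by limma 3.58.1 (R 4.3.3; trend and robust options on), at a Benjamini-Hochberg adjusted p of 0.05. Fold changes on this scale are understated for low genes. One fit joined the 5 tables with table and genotype as terms. Named genes were the 10 members, up to 4 passing genes per list (otherwise up to 2 as values) and the 3 most correlated genes of each member with a mean of 50 or more in every table. Same-numbered Epi and Adipo samples of a genotype had correlations from 0.105 to 0.597 in all 5 pairs, lowest in KO (0.268 and 0.105). They were taken as paired in the fits with a block, which the labels do not state. Between KO and WT of the same number in a table the correlations ran from -0.52 to 0.53, with at least 1 below 0 in every table, and these were not taken as paired.

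Alternatives were the sum over transcripts, pseudocounts of 0.5 and 5, TMM scaling, no filter or a minimum of 50, the replicate number as a block, each replicate or table left out, array weights, and CD KO 1 and KO 2 as 1 replicate. EdgeR 4.0.16 and DESeq2 1.42.0 on recovered reads, the Epi and Adipo pairing in the joint fit and leaving out libraries with markers of other tissues or low shares of short 5′ transcripts were added after the data were seen. The members and lists were chosen with earlier results of these data known. The scripts were tested on simulated data.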

Additional observations from a re-analysis of the deposited data

Results flagged for a closer look

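In HFD and BA, with 4 replicates a group, 60 groups of values were tested for a single replicate far from the others, and 8 held one; chance flags about 1 in 20. In HFD WT, Grb14 was 219 in WT 3, against 439 in the next replicate. In HFD KO, the log2 ratio of Slc2a4 to Slc2a1 was 4.42 in KO 2, against 4.10 in the next. In BA KO, Akt2 was 5379.9 in KO 1, against 3886 in the next, and Slc2a4 was 14736 in KO 1, against 13612. In BA WT, Foxo1 was 852 in WT 3, against 1317 in the next, and Grb14 was 344 in WT 2, against 304. In BA WT, Insr was 1469 in WT 4, against 1216, and Pik3r1 was 3035 in WT 1, against 2255.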

How the results depend on the processing

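Irs2 in HFD passed in all 19 alternatives for that table, and Irs2, Pik3r1 and Grb14 passed in all 16 for the 5 tables together, among them the pairing of Epi and Adipo samples as a replicate block. Irs1 over the tables was lost without the HFD table and passed in the other 15. The count of members called became 2 in CD by DESeq2, 2 in HFD with TMM, edgeR or without WT 3 and WT 4, and 3 in HFD by DESeq2. In Adipo it became 1 without a filter, 3 by DESeq2 and 1 with the replicate number as a block, a fit that has no partner for WT 3. In BA it became 1 by DESeq2. The replicate block changed no other count of members, with 0 in CD, Epi and BA and 1 in HFD. With each replicate left out in turn the count ranged from 1 to 2 in HFD (2 without WT 1), and from 0 to 1 in Adipo (1 without WT 3), BA (1 without KO 1) and HFD minus CD (1 without CD KO 3).

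Log2 fold changes near 0 turned sign. In CD, Akt2 was -0.0566 with TMM, -0.0512 summed over transcripts, -0.0783 by edgeR and -0.0835 by DESeq2, and Foxo1 was -0.0219 with TMM, -0.0468 by edgeR and -0.0516 by DESeq2. Slc2a4 in CD was 0.23 without KO 1, KO 2 and WT 2. In HFD, Tbc1d4 was 0.0702 with TMM, 0.0873 summed over transcripts, 0.0800 by edgeR and 0.0807 by DESeq2, and Insr was -0.0111 without KO 1 and WT 1. Without HFD WT 3 and WT 4, Insr was -0.0381 and Tbc1d4 0.0594. Slc2a4 in Adipo was -0.13 with the replicate block. Akt2 over the tables was 0.0850 without HFD, 0.0064 without Adipo, 0.0504 without HFD WT 3, HFD WT 4, BA KO 3 and BA WT 2, and 0.0015 with CD KO 1 and KO 2 as 1 replicate. With each replicate left out, the values in CD ran from -0.106 to 0.53 for Grb10, from -0.53 to 0.0612 for Slc2a4, from -0.24 to 0.26 for Akt2 and from -0.25 to 0.34 for Foxo1. In HFD they ran from -0.0276 to 0.14 for Insr and from -0.13 to 0.0636 for Tbc1d4. In Adipo they ran from -0.13 to 0.41 for Slc2a4 and from -0.19 to 0.0347 for Akt2. In BA they ran from -0.0170 to 0.16 for Akt2 and from -0.0860 to 0.15 for Foxo1.

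The count of all genes called moved more than that of the members. By DESeq2 CD had 922, HFD 1452, Epi 530, Adipo 1797 and BA 271. With each replicate left out CD ran from 0 to 637 (637 without KO 3), HFD from 126 to 1166 (1166 without WT 1), Epi from 0 to 22, Adipo from 3 to 718 (718 without WT 3) and BA from 0 to 9. For Adipo minus Epi it ran from 33 to 656, and for HFD minus CD from 0 to 730 (730 without CD KO 3). The replicate block gave 268 in HFD and 1395 in Adipo. In Adipo it was 143 with TMM and 378 without a filter, and in BA 1 with TMM or edgeR, 2 without a filter and 7 summed over transcripts. Over the 5 tables it was 281 without HFD, 377 without Adipo and 1215 with array weights, and the interaction test called 63 without Adipo. The cause of these changes was not tested. With 2 to 4 replicates a group, a fold change that missed the threshold is not shown to be absent.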

Other observations

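In the Adipo table several signalling genes outside the 10 members had high log2 fold changes that did not pass at an adjusted p of 0.05; those named here were chosen after their values were seen. Akt1, the widely expressed AKT isoform, was at 0.62 ± 0.17 (SE, adjusted p = 0.115). Slc2a1, which encodes the basal glucose transporter GLUT1, was at 1.10 ± 0.32 (adjusted p = 0.129), and Igf1r at 1.28 ± 0.32 (adjusted p = 0.104). Socs1, an inhibitor of cytokine and insulin signalling, was at 2.92 ± 0.42 (adjusted p = 0.0557). In the same table the summed signal of 5 endothelial markers was 12192 to 28891 in KO against 1723 to 3186 in WT, and its part in these values was not tested. Irs3, a substrate gene that rodents express in fat, was at -0.03 ± 0.20 in Adipo (adjusted p = 0.925), at 0.41 ± 0.17 in BA (adjusted p = 0.5) and at 0.37 ± 0.17 over the 5 tables (adjusted p = 0.221).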
